A study of Mus musculus with 12 samples.

Results

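The cornified envelope genes Lor, Sprr1a, Sprr2d, Sprr3, Krtdap, Cnfn, Tgm1, Tgm3, Crct1 and Sbsn were followed across all groups of arrays. All probes annotated with 1 of these symbols were taken, which gave 11 probes for the 10 genes among 29922 probes and 16675 gene symbols, with 2 probes for Sbsn and 1 for each of the other genes. The study asked how chitosan, a polysaccharide made from chitin, acts on gene expression in the organs of mice that report the activity of peroxisome proliferator-activated receptors (PPARs). The 4 groups were the stomach of chitosan mice, the stomach of mock mice, the brain of chitosan mice and the brain of mock mice, with 3 arrays each. Chitosan mice were injected under the skin with 0.2 g/kg of chitosan oligosaccharide lactate, which was dissolved in water (DDW). Mock mice received saline by the same route, so the injected fluid differed as well, and the organs were taken on day 3. All mice were males of the FVB strain, 6 to 8 weeks old, and heterozygous for a luciferase transgene placed behind tandem PPAR responsive elements and a viral thymidine kinase promoter, so the mock mice carried the transgene too. The arrays of a group came from independent mice by the study's methods, but whether a brain and a stomach with the same number came from the same mouse is not stated, nor is the founder line.

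The cornified envelope is a sheath of cross-linked protein that replaces the plasma membrane of squamous epithelial cells as they die at the surface. Loricrin (Lor) and the small proline-rich proteins (Sprr) are its building blocks, and the transglutaminases Tgm1 and Tgm3 join them by isopeptide bonds. In the mouse the upper chamber of the stomach, the forestomach, is lined by keratinised squamous epithelium, while the lower chamber is glandular. The labels name only the stomach, and the share of each chamber in the samples is not stated.

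Cy5 intensities on a linear scale were analysed as log2 values. An intensity was called above background when it exceeded 2 times the lowest intensity of its array, which was 34.3 to 35.3, and 9.52 to 10.6% of probes passed this on each array. Array 3 of the chitosan stomach stood apart, with 268 distinct intensities against 308 to 947 on the other arrays, the lowest share of probes above background and the lowest mean correlation with its own group (0.822, against 0.838 to 0.923 for the other arrays). For the members and the gene lists of the squamous epithelium, values without this array are given as well.

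The squamous origin of the signal was checked with keratins of stratified epithelia. Krt13, a keratin of internal squamous epithelia, had 13240, 13240 and 11240 in the chitosan stomach, 8985 on each array of the mock stomach and 46.4 to 53.5 in the brain. Its partner Krt4 had 2069, 1782 and 641 in the chitosan stomach, 752, 1325 and 777 in the mock stomach and 37.6 to 40.4 in the brain. Both were bright in every stomach sample and at background in every brain sample. By contrast, Trp63, which encodes a transcription factor of basal squamous cells, was at background in the stomach, with means of 48.5 ± 1.82 in chitosan mice and 47.4 ± 2.03 in mock mice (SD, n = 3 each). So were Ivl (involucrin, 51.5 ± 1.73 in the chitosan stomach and 49.4 ± 1.17 in the mock stomach) and Flg (filaggrin, 48.3 ± 2.29 in the chitosan stomach and 49.1 ± 2.64 in the mock stomach), which are an envelope precursor and the filament-bundling protein of skin. The probes named Trp63, Ivl and Flg were singled out after their values were seen. A name from the forestomach thus rests on keratins and envelope genes, not on basal cell factors. Both sets of genes were chosen with earlier results of these data known.

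Promoter sequences of the genes were taken from RefSeq (mouse build GRCm38.p6, 250 bases before to 50 bases after the start of transcription). They matched 9 of the 10 genes with 10 promoters, since Tgm1 has 2, and Crct1 was not matched. The promoters of Lor, Sprr1a, Krtdap and Sprr3 are shown as examples that differ in the motifs they hold. Each runs 5′ to 3′ on the strand of the gene, and capitals mark matches of TGANTCA, the letters bound by Jun and Fos factors (AP-1), and of the TATA box letters TATAAA.
Lor, chr3:92083093-92083392, minus strand: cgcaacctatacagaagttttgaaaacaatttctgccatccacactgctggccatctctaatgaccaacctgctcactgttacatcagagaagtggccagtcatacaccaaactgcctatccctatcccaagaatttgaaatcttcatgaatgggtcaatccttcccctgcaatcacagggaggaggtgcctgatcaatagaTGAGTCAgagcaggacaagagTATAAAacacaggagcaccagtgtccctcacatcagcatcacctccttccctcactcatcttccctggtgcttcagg
Sprr1a, chr3:92485832-92486131, minus strand: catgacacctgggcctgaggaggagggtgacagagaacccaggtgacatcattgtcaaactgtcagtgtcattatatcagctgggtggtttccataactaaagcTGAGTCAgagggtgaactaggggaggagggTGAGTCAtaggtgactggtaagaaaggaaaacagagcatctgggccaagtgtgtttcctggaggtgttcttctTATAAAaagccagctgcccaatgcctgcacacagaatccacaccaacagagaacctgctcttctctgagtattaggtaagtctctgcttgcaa
Krtdap, chr7:30787655-30787954, plus strand: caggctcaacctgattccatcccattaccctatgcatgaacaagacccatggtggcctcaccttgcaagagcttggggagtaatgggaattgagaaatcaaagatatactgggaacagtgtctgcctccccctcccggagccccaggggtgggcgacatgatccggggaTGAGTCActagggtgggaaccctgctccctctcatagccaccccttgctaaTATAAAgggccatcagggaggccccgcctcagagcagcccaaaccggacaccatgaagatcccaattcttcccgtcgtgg
Sprr3, chr3:92458671-92458970, minus strand: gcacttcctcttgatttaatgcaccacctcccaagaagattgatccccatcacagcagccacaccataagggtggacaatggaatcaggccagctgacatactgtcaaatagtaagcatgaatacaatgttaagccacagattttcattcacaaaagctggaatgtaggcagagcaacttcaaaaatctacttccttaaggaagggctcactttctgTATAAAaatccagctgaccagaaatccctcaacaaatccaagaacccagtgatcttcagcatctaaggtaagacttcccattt

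Counted from the start of transcription, the TGAGTCA of the Lor promoter began at -48 and its TATAAA at -27. Sprr1a held TGAGTCA at -146 and -116 and Krtdap at -81, and Sprr3 had a TATAAA at -33 but no TGANTCA. With both strands searched, TGANTCA occurred in 5 of the 10 member promoters (Lor, Sprr1a, Sprr2d, Krtdap and Sbsn), and in 7.81% of 32851 promoters of the same length. TATAAA occurred in 6 of the 10 (Lor, Sprr1a, Sprr2d, Sprr3, Krtdap and Tgm3), and in 13.6% of all promoters. CACCC, the core bound by Krüppel-like factors, occurred in 8 of the 10 and in 57.5% of all promoters, and GGAAG, the core bound by Ets factors, in 6 of the 10 and in 71.4% of all. In the Sprr1a promoter 1 match of CACCC shares letters with the TGAGTCA at -116. The Sprr promoters belong to copies of 1 gene family, and the matches describe letters, not binding.

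The first comparison asked which members are transcripts of the stomach and not of the brain. The members were chosen with earlier results of these data known, so their counts here describe them and are not independent support. In mock mice all 11 probes were called higher in the stomach than in the brain (limma with Benjamini-Hochberg adjustment, adjusted p under 0.05), where 3.54% of all probes were called higher, and on all 11 every stomach array lay above every brain array, against 11.2% of all probes. All 11 also passed an unadjusted p under 0.05, as did 8.87% of all probes in this direction. A measured difference of 2-fold or more was reached by 10 of the 11, all but Tgm1 (2.08% of all probes), and the model of all 12 arrays called 10 of the 11 (3.03% of all probes). Since brain intensities were at background, folds are lower bounds. They set the mean log2 intensity of the stomach against the mean, over the brain arrays, of the higher of the probe's own signal and the lowest signal above background on that array. A level in such bulk samples does not separate more squamous cells from more RNA per cell.

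Crct1, a small cysteine-rich protein of squamous cells, had 3842, 4233 and 4542 in the mock stomach and 60.8, 47.8 and 47.8 in the mock brain. The stomach was at least 58.6-fold higher (adjusted p = 0.000181, limma). Among the building blocks, Sprr3 was at least 19.2-fold higher (adjusted p = 0.000295, limma) and Lor at least 12.5-fold higher (adjusted p = 0.000294, limma). Sprr3 is known from oesophagus and other internal squamous linings. For Sprr1a and Sprr2d, whose products bridge other envelope proteins, the bounds were 4.17-fold and 2.89-fold. The genes of secreted proteins made by differentiating keratinocytes followed, with at least 13.6-fold for Krtdap and at least 12.6-fold and 2.72-fold on the 2 probes of Sbsn (suprabasin). Cnfn (cornifelin, a minor envelope protein) was at least 3.84-fold higher. The enzymes had the lowest bounds, of 1.37-fold for Tgm3 and 1.25-fold for Tgm1, and Tgm1 alone lost its call in the model of all 12 arrays (adjusted p = 0.0651, limma).

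The same organ comparison was made in chitosan mice. Here 6 of the 11 probes were called higher in the stomach (0.939% of all probes), although every stomach array again lay above every brain array on all 11 (7.87% of all probes). All 11 passed an unadjusted p under 0.05 (4.83% of all probes), 10 had a measured difference of 2-fold or more, all but Tgm3 (1.78%), and the model of all 12 arrays called 10 of them (1.67%), all but Cnfn. Crct1 was at least 77.1-fold higher (adjusted p = 0.00502, limma), Sprr3 at least 30.3-fold, Lor at least 23.6-fold, Krtdap at least 16.4-fold and the dimmer Sbsn probe at least 4.52-fold. On the brighter Sbsn probe 1 of the 3 brain arrays was just above background, and against the same floor the fold was 19.1 (adjusted p = 0.0164, limma). The 5 probes that missed the call were Sprr1a (adjusted p = 0.169, limma), Sprr2d (0.0608), Cnfn (0.289), Tgm1 (0.0848) and Tgm3 (0.0845). For Cnfn and Tgm3 array 3 of the chitosan stomach was itself at background. Without this array all 11 probes were called, where 2.47% of all probes were. Leaving out array 2 of the chitosan stomach left 0 of the 11 and 0% of all probes called, and leaving out array 1 of the chitosan brain left 1 of the 11 and 0.0501% of all probes. The members' counts thus moved with those of the whole array. With the replicate number as a block, the adjusted p of Sprr2d was 0.0492 (limma) and 7 probes were called, beside 1.15% of all probes.

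**Figure D1:**
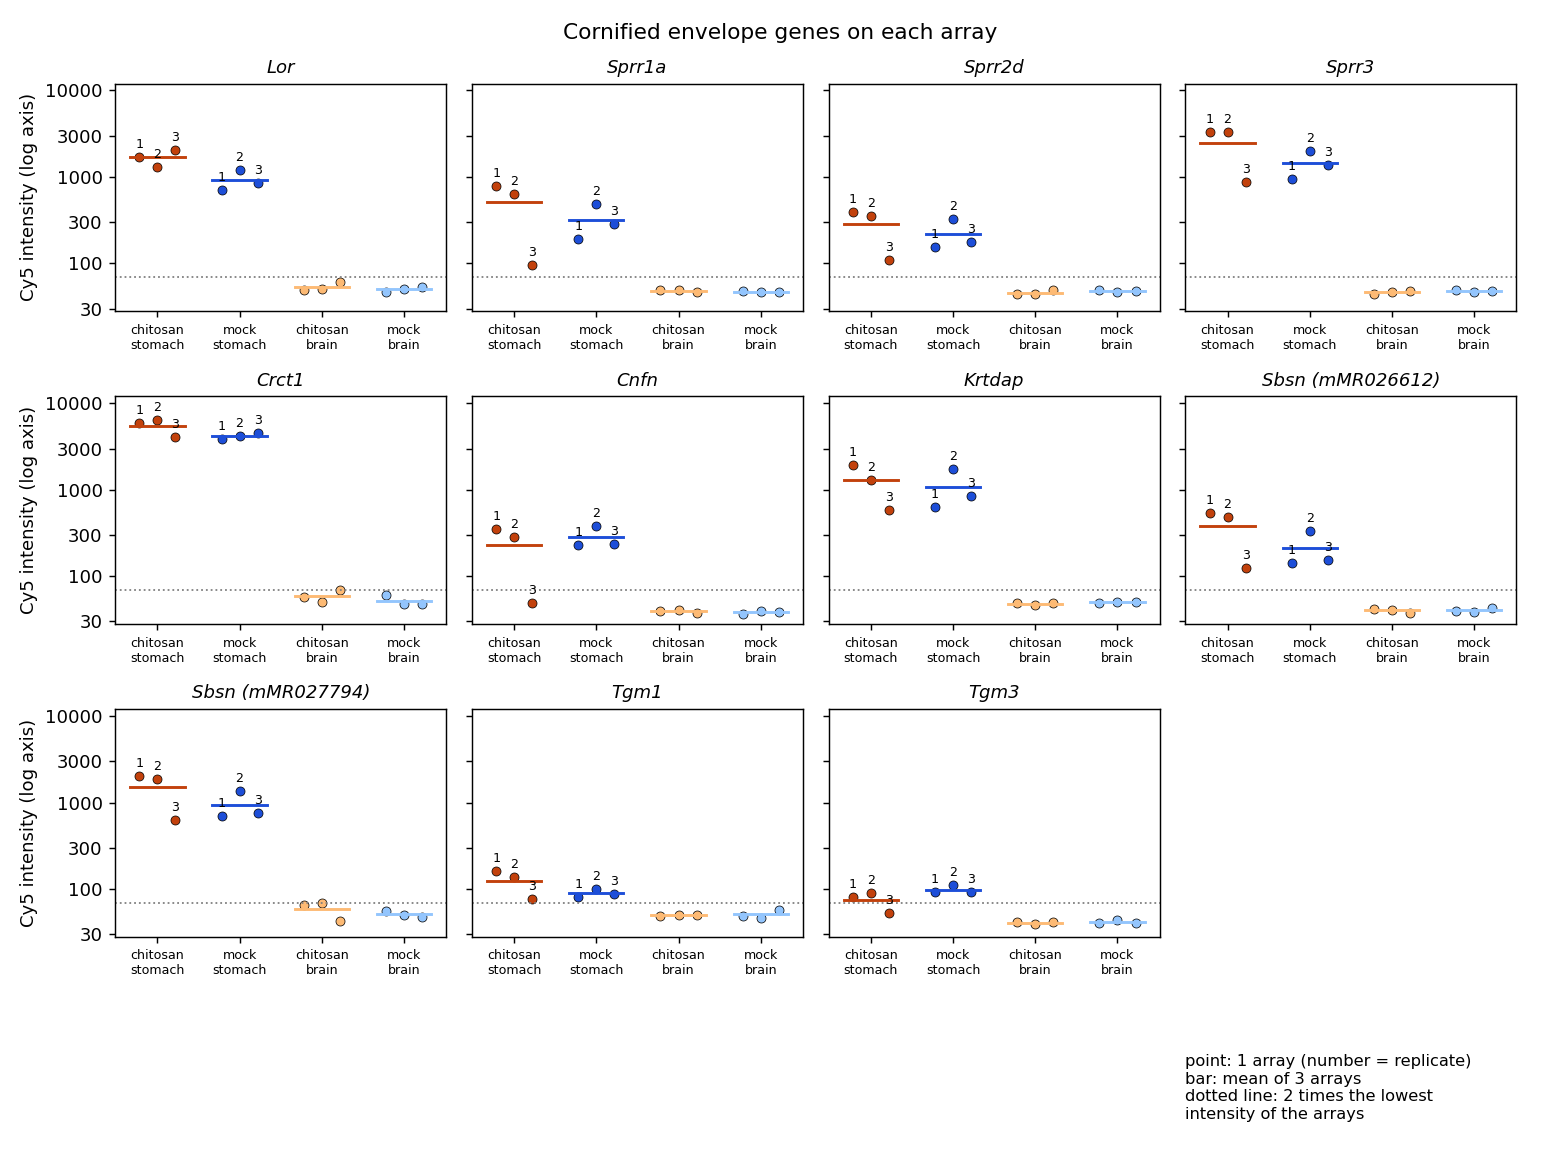
Cy5 intensity (log axis) of each cornified envelope probe on each of the 12 arrays, with the replicate number above stomach points, a bar at the mean of 3 arrays and a dotted line at the background limit. All 11 probes sit higher in the stomach than in the brain, and array 3 of the chitosan stomach is the lowest chitosan stomach array on 10 of them.

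The main question was whether chitosan changed the envelope genes in the stomach. None of the 11 probes was called at an adjusted p of 0.05 (limma), and none of the 29922 probes was, so that the share called was 0% in each direction. At an unadjusted p under 0.05, 1 of the 11 was higher and 0 were lower, where 2.03% of all probes were higher and 3.22% lower. The model of all 12 arrays called 0 of the 11, and 0.0267% of all probes higher and 0.291% lower. None reached a 2-fold difference of the mean log2 intensities, which 0.127% of all probes reached upward and 0.394% downward. The mean was higher in the chitosan stomach for 9 probes and lower for 2, and it was higher for 56.7% of all probes. The median log2 difference over the 11 probes was 0.36, beside 0.01 over all probes and -0.01 over the 3638 probes above background in either group.

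Lor had the largest difference. Its intensity was 1691, 1307 and 2037 in the chitosan stomach, against 713, 1199 and 841 in the mock stomach. It was the member with every chitosan array above every mock array, which 6.86% of all probes showed. The log2 difference was 0.88 ± 0.32 (SE, 95% interval 0.12 to 1.64), a 1.84-fold higher mean, with an adjusted p of 0.853 (limma), and it was 0.73 without array 3. An exact permutation test of 3 arrays against 3 cannot give a two-sided p under 0.1.

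The 3 small proline-rich genes shared a pattern in which arrays 1 and 2 of the chitosan stomach were high and array 3 was low. Sprr3 had 3297, 3297 and 876 in the chitosan stomach, against 941, 2004 and 1377 in the mock stomach. Its first pair of chitosan arrays exceeded all mock arrays and the remaining one was below all of them, so the groups overlapped, with a log2 difference of 0.62 ± 0.55 (SE, 95% interval -0.65 to 1.90). Sprr1a had 794, 637 and 94.8 in the chitosan stomach, against 193, 488 and 283 in the mock stomach. Its log2 difference of 0.28 had the widest interval among the Sprr genes (-1.83 to 2.40). Sprr2d had 398, 350.2 and 109 in the chitosan stomach, against 156, 323 and 175 in the mock stomach, with a log2 difference of 0.26 (95% interval -1.27 to 1.79). Sprr2 genes are near-identical copies, and the part of other copies in the Sprr2d signal was not tested.

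Crct1 varied least between arrays. It had 5976, 6398 and 4102 in the chitosan stomach, against 3842, 4233 and 4542 in the mock stomach, and the groups overlapped through chitosan array 3. Its difference was small and tightly measured, 0.36 ± 0.16 on the log2 scale (SE, 95% interval -0.01 to 0.73). Krtdap had 1950, 1307 and 586 in the chitosan stomach, against 631, 1728 and 845 in the mock stomach. Here all mock arrays lay within the chitosan range, and the log2 difference was 0.23 ± 0.57 (SE).

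The 2 Sbsn probes gave the same profile, with a correlation of 0.9997 over the 6 stomach arrays. The brighter probe had 2037, 1851 and 634 in the chitosan stomach, against 702, 1377 and 765 in the mock stomach, and the dimmer one 532, 479 and 124 in the chitosan stomach, against 143, 336 and 154 in the mock stomach. Their log2 differences were 0.56 ± 0.53 and 0.70 ± 0.73 (SE). Cnfn went the other way in its mean, with 350.2, 282 and 48.7 in the chitosan stomach, against 231, 383 and 233 in the mock stomach. The value of 48.7 on chitosan array 3 was at background, the log2 difference was -0.70 ± 0.80 (SE), and without that array it was 0.19.

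The cross-linking enzymes were close to background. Tgm1, the membrane-bound transglutaminase of keratinocytes, had 163, 137 and 76.1 in the chitosan stomach, against 80.2, 101 and 88.6 in the mock stomach, with a log2 difference of 0.42 ± 0.32 (SE). Its chitosan arrays 1 and 2 exceeded the mock arrays and array 3 did not. Tgm3, the soluble enzyme that acts on loricrin and the Sprr proteins, had 80.7, 88.9 and 52.8 in the chitosan stomach, against 91.2, 111 and 93.04 in the mock stomach. All chitosan arrays lay below all mock arrays, which 5.37% of all probes showed, and the log2 difference was -0.44 ± 0.23 (SE, 95% interval -0.98 to 0.10, adjusted p = 0.853, limma). So the mean of 1 transglutaminase was on each side of 0, and neither passed the test.

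**Figure D2:**
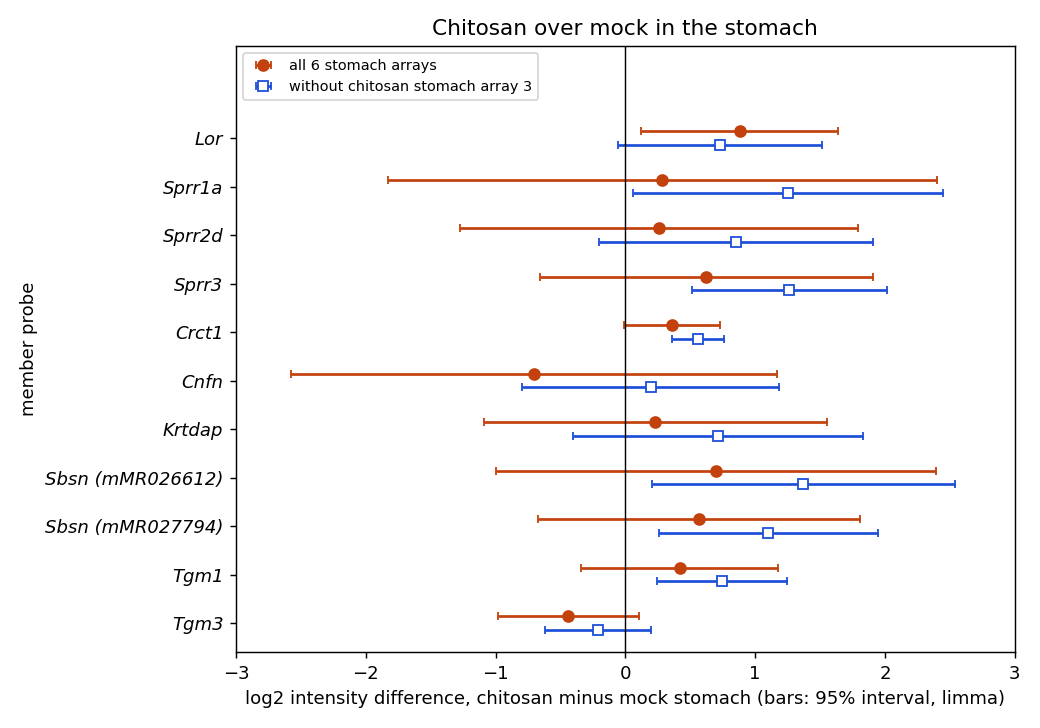
Log2 difference of intensity, chitosan minus mock stomach, for each cornified envelope probe, with 95% intervals from limma that are not adjusted for the number of probes, from all 6 stomach arrays (filled circles) and without chitosan array 3 (open squares). With all arrays only the interval of Lor excludes 0, and without array 3 the difference of Sprr3 moves to 1.26 and that of Cnfn to 0.19.

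Leaving out chitosan array 3 moved the median of the members most. Without it the median log2 difference of the 11 probes was 0.74, and 8 of them were higher on both remaining chitosan arrays than on every mock array, which held for 13.3% of all probes. A 2-fold higher mean was then reached by 4 of the 11 (Sprr1a 2.38-fold, Sprr3 2.40-fold, Sbsn 2.59-fold and 2.15-fold), against 0.381% of all probes. None of the 11 was called (adjusted p from 0.221 for Crct1 to 0.942 for Cnfn, limma), while 1 probe of the whole array was called higher and 2 lower. Leaving out mock array 2 instead gave a median of 0.64 with 2 probes at 2-fold (Lor and the dimmer Sbsn probe), and leaving out chitosan array 1 or 2 gave 0.19 and 0.24. Several members changed sign with 1 array left out, since Sprr1a was -0.28, Krtdap -0.15 and Sprr2d -0.08 without chitosan array 1. Without chitosan array 3 the log2 differences were 1.25 for Sprr1a, 0.71 for Krtdap, 0.85 for Sprr2d, 0.73 for Lor, 0.56 for Crct1, 0.74 for Tgm1 and -0.21 for Tgm3.

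The members varied together from array to array. Array 3 was the lowest chitosan stomach array for 10 of the 11 probes, all but Lor, and for 51.6% of the 3072 probes with a stomach mean above background. Mock array 2 was the highest mock stomach array for 10 of the 11, all but Crct1, and for 39.4% of those probes. Both held for 9 of the 11 and for 35.6% of those probes. With each gene's mean set to 0, the members averaged 0.69, 0.50 and -0.82 on the log2 scale in the chitosan stomach, against -0.48, 0.34 and -0.23 in the mock stomach, so that arrays within 1 group lay farther apart than the group means. The part of array quality in this spread was not tested.

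Lor did not share the profile. Over the 6 stomach arrays the 45 pairs of the other probes correlated with a median r of 0.90 (0.08 to 0.9997), whereas the 10 pairs with Lor had a median of 0.26 (-0.66 to 0.36). These correlations describe 6 arrays that belong to 2 groups and share their normalisation. An r above 0.9 with the members' mean profile was found for 7 of the 11 probes, which help to make that profile, and for 14.5% of the 3072 probes. Among 2465 other genes the most similar over the 6 arrays were Hat1 (r = 0.998), Dync1li1 (0.998), Pacsin2 (0.997), Eif3i (0.997), Sh3glb2 (0.994) and Zadh2 (0.994). They encode a histone acetyltransferase, a dynein light intermediate chain, a membrane-bending protein, a translation initiation subunit, an endophilin and a reductase, and none of them is an envelope gene. Eif3i, the brightest of them, had 396, 310.4 and 76.1 in the chitosan stomach, against 100.2, 246 and 126 in the mock stomach. This is the order of arrays seen for Sprr1a.

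**Figure D3:**
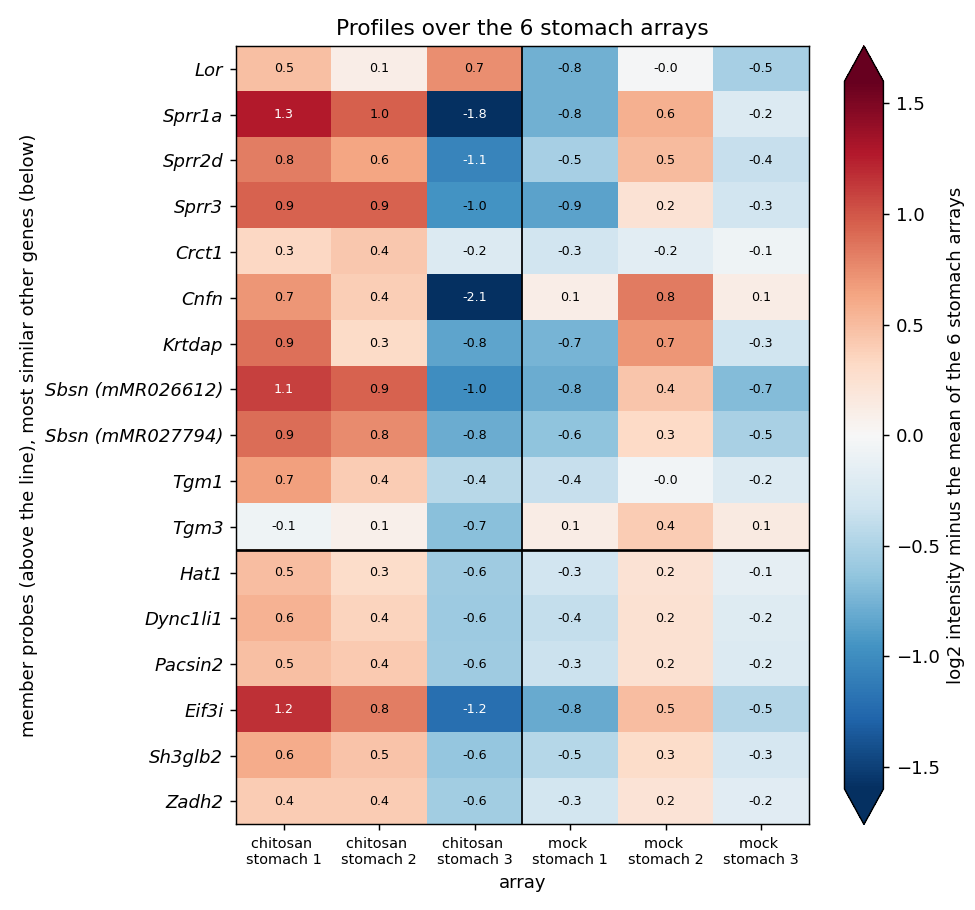
Log2 intensity minus the mean of the 6 stomach arrays for the cornified envelope probes (above the line) and the 6 other genes with the most similar profile (below it), one column per array with chitosan arrays on the left. Most members are high on chitosan arrays 1 and 2 and low on array 3. Lor is higher on every chitosan array than on every mock array, on chitosan array 2 only slightly.

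Other envelope precursors and cross-linkers gave a like picture. Of 48 listed genes 30 were measured, and 18 of these were above background in the stomach. In chitosan mice the mean was higher for 12 of the 18 and lower for 6, with a median log2 difference of 0.18, or 0.61 without array 3, and none was called (limma). In mock mice 15 of the 30 were called higher in the stomach than in the brain, beside 3.54% of all probes. Rptn (repetin, an envelope precursor known from mouse forestomach and skin) had 3558, 4755 and 3842 in the chitosan stomach, against 2037, 1835 and 2783 in the mock stomach. Its groups did not overlap, and array 3 was not low, with a log2 difference of 0.88 ± 0.18 (SE) and an adjusted p of 0.405 (limma). Lce3f, of the late cornified envelope family, had 4102, 3951 and 2669 in the chitosan stomach, against 2487, 3239 and 3239 in the mock stomach, which overlapped (log2 difference 0.24 ± 0.18, SE). Lce1c averaged 933 ± 630 in the chitosan stomach and 1064 ± 114 in the mock stomach (SD, n = 3 each).

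Squamous keratins and desmosome genes were next. Of the 15 measured keratins 8 were above background, with 6 higher means and 2 lower in the chitosan stomach (median log2 difference 0.33, and 0.40 with again 6 higher without array 3). Krt13, given above, had a log2 difference of 0.48 ± 0.06 (SE) without overlap, and its adjusted p was 0.0993 (limma) with 6 arrays and 0.754 with all 12. Krt10, the keratin of suprabasal cornifying cells, had 4542, 4953 and 9824 in the chitosan stomach and 11240 on each mock array, a log2 difference of -0.89 ± 0.26 (SE, adjusted p = 0.773, limma). Every chitosan array was below the mock arrays, and array 3 was the closest to them. Equal values on the 3 mock arrays are ties in the deposited values. Krt14, the keratin of the basal layer, averaged 4618 ± 304 in the chitosan stomach and 3920 ± 554 in the mock stomach (SD, n = 3 each). Of the 15 desmosome genes 8 were above background, 6 of them with a higher mean (median log2 difference 0.18, and 0.13 with 5 higher without array 3). Dsp (desmoplakin) had 1552, 1676 and 2933 in the chitosan stomach, against 1935, 781 and 2113 in the mock stomach, and its array 3 was the highest.

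Barrier enzymes and regulators were also followed. Of 24 measured barrier lipid enzymes, kallikreins and protease inhibitors 17 were above background, 12 with a higher and 5 with a lower mean in the chitosan stomach and a median log2 difference of 0.20. Without array 3 it was 16 of the 17 with a higher mean and a median of 0.39. Serpinb12, a protease inhibitor, had 3647, 3842 and 3602 in the chitosan stomach, against 2557, 3105 and 2933 in the mock stomach, a log2 difference of 0.37 ± 0.09 (SE, adjusted p = 0.599, limma) without overlap. Asprv1, an aspartic protease of cornifying cells, had 2532, 1950 and 1114 in the chitosan stomach, against 805, 1782 and 917 in the mock stomach, and its groups overlapped. Aloxe3, a lipoxygenase of the barrier lipids that was singled out after its values were seen, had 126, 136 and 129 in the chitosan stomach, against 67.3, 76.1 and 75.3 in the mock stomach. It was the gene of this list called in the model of all 12 arrays (log2 difference 0.84, adjusted p = 0.000874, limma, and 0.508 with 6 arrays). That model called 0.0267% of all probes higher. Of 14 measured regulators 4 were above background, 3 with a higher and 1 with a lower mean in the chitosan stomach (median log2 difference 0.24). Without array 3 the median was 0.26, with 2 higher. The lower one was Elf3, an Ets factor of epithelia, at background on each chitosan array and little above it on the mock arrays. It averaged 46.3 ± 5.32 in the chitosan stomach and 76.8 ± 4.81 in the mock stomach (SD, n = 3 each, adjusted p = 0.15 with 6 arrays and 0.00299 with all 12, limma). The model of all 12 arrays called 0.291% of all probes lower. Klf4 and Klf5, Krüppel-like factors, averaged 459 ± 204 and 266 ± 74.9 in the chitosan stomach, against 376 ± 119 and 180 ± 25.4 in the mock stomach, and each overlapped.

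Summed markers of the glandular and muscle cells of the stomach did not overlap between the groups. For gastric mucous cells 11 of 13 listed genes were measured and 5 were above background, of which 4 had a lower mean in the chitosan stomach, and the summed intensity was 1021 to 2987 there and 5185 to 12630 in the mock stomach. For chief cells 3 of the 6 measured genes were above background, all 3 with a lower mean, and the sums were 877 to 924 in the chitosan stomach and 4279 to 4926 in the mock stomach. For parietal cells all 6 of the 6 above background, out of 12 measured, had a lower mean, with sums of 1007 to 1254 in the chitosan stomach and 2134 to 2580 in the mock stomach. For endocrine cells it was both of the 2 above background, out of 8 measured, with sums of 598 to 725 in the chitosan stomach and 3227 to 3827 in the mock stomach. Smooth muscle went the other way, with 8 of 8 genes above background higher, out of 10 measured, and sums of 14720 to 17320 in the chitosan stomach and 8090 to 9878 in the mock stomach. No gene of these lists was called from the 6 stomach arrays (limma). With all 12 arrays 2 mucous, 3 chief, 3 parietal and 1 endocrine gene were called lower and 0 smooth muscle genes were called. The model of all 12 arrays called 0.291% of all probes lower and 0.0267% higher.

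Of the basal squamous markers 2 of 8 measured genes were above background (Krt5 and Krt14), both with a higher mean in the chitosan stomach. Their median log2 difference was 0.33, and 0.40 without chitosan stomach array 3. The sums of the list were 4865 to 5474 in the chitosan stomach and 3736 to 4782 in the mock stomach. The summed intensity of the 11 member probes was 17270, 16130 and 8740 in the chitosan stomach, 7725, 12280 and 9397 in the mock stomach and 506 to 532 in the brain. The member sums thus overlapped, unlike the glandular and muscle sums. The basal squamous sums, made up mostly of Krt14, were only narrowly apart (4865 against 4782), and Krt14 itself overlapped between the groups. The part of a different make-up of the pieces of stomach in the member values was not tested. Hair follicle markers, which would come with skin or fur, summed to 449 to 696 in the chitosan stomach and 477 to 631 in the mock stomach, against 546 to 774 in the chitosan brain and 587 to 646 in the mock brain. That list includes Lhx2, a transcription factor also expressed in the brain, with 49.3 to 157 in the chitosan stomach, 53.2 to 101 in the mock stomach, 139 to 326 in the chitosan brain and 180.5 to 231 in the mock brain. Of the hair keratins and Msx2, Krt35 and Msx2 reached 76.1 and 149 on chitosan stomach array 3, and Krt25 reached 138 on mock stomach array 3. Fibroblast markers (905 to 2155 in the chitosan stomach, 999.8 to 1762 in the mock stomach) and immune markers (438 to 487 in the chitosan stomach, 483 to 519 in the mock stomach) overlapped in their sums. Only 2 of the 9 measured immune genes were above background, S100a8 and Cd68, both lower in the chitosan stomach without overlap. With all 12 arrays both were called lower (adjusted p = 0.000401 and 0.0488, limma), beside 0.291% of all probes. With 6 arrays neither was (0.097 and 0.59). Among pancreatic acinar markers only Clps (colipase) was above background, and the list summed to 3109 to 6305 in the chitosan stomach and 16990 to 20410 in the mock stomach. Neuron markers summed to 5223 to 7328 in the chitosan brain, 5278 to 7491 in the mock brain and 316 to 352 in the stomach, and glia markers to 383 to 832 in the chitosan brain, 520.3 to 588 in the mock brain and 278 to 317 in the stomach, so the brain samples carried brain RNA.

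Of the 10 members 7 lie in 2 gene clusters, and Cnfn, Tgm1 and Tgm3 lie outside them. By the RefSeq order of genes (GRCm38.p6), Lor, Sprr2d, Sprr3, Sprr1a and Crct1 fall in this order within an interval of 42 protein-coding genes on chromosome 3, of which 29 had a probe. Of the other 24 genes with a probe 10 were called higher in the mock stomach than in the mock brain, beside 3.54% of all probes. Of the same 24 genes 13 were above background in the stomach. In the chitosan stomach 8 of these 13 had a higher mean than in the mock stomach. None was without overlap upward and 1 was without overlap downward, where 6.86% and 5.37% of all probes were. This was Sprr2i, with means of 399.5 ± 33.6 in the chitosan stomach and 532 ± 73.7 in the mock stomach (SD, n = 3 each). Genes at background and genes above it were interspersed, since Sprr1b, Sprr2e, Sprr2f, Sprr2h, Sprr2k, Sprr4, Ivl and Lelp1 were at background in every group while their neighbours Sprr3 and Sprr1a were not. Probes differ in their response, so the order of brightness between genes is not an order of transcript levels. On chromosome 7 Sbsn, Dmkn and Krtdap are adjacent. Dmkn (dermokine, a secreted keratinocyte protein) averaged 3252 in the chitosan stomach and 1710 in the mock stomach, with a log2 difference of 0.93 ± 0.57 (SE), and it was called higher in the mock stomach than in the mock brain (adjusted p = 0.000591, limma).

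**Figure D4:**
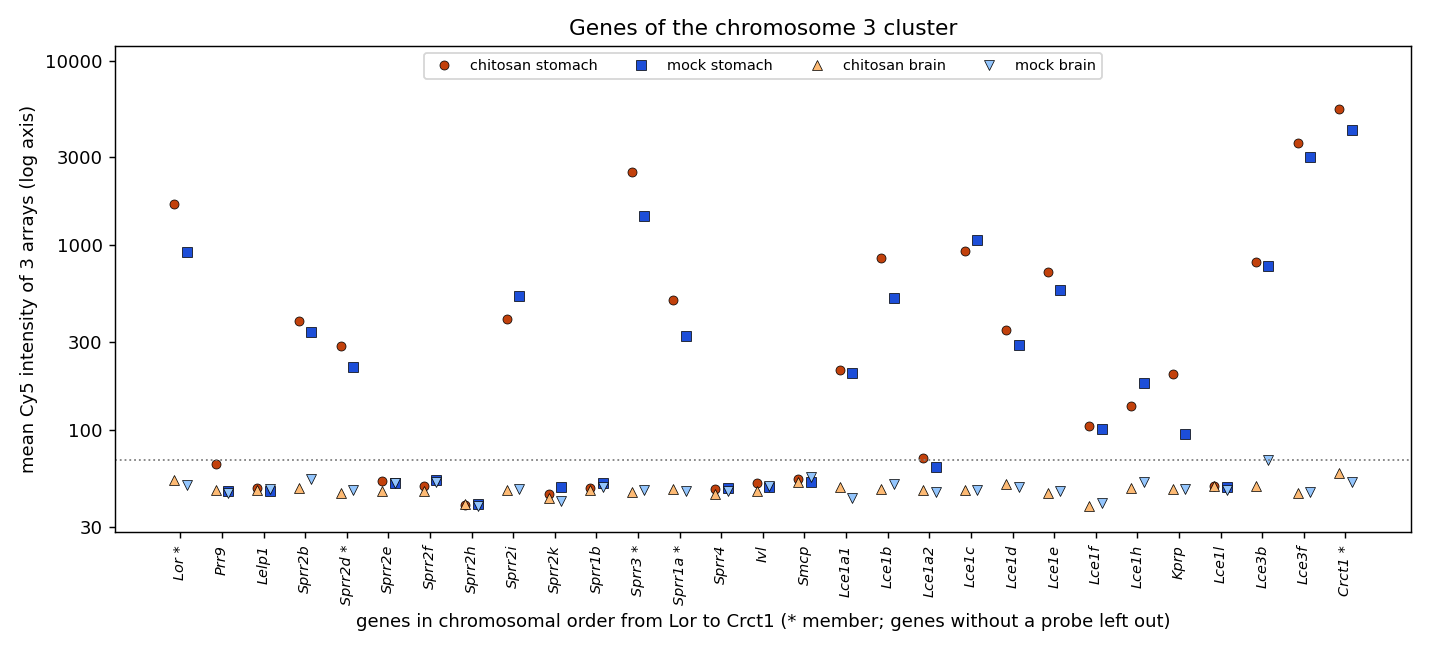
Mean Cy5 intensity of 3 arrays (log axis) in each group for the 29 genes with a probe between Lor and Crct1 on chromosome 3, in their order along the chromosome, with stars for the members and a dotted line at the background limit. Genes that are bright in the stomach are interspersed with genes at background, and brain means lie near or below the limit.

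In the brain the members were at background in both groups. Over the 11 probes and the 6 brain arrays 1 intensity was above background, that of the brighter Sbsn probe on array 2 of the chitosan brain (69.6). The log2 differences, chitosan over mock, lay between -0.06 and 0.18, with a median of -0.01, and all groups overlapped, whereas 5% of all probes were higher and 6.79% lower on every chitosan array. None was called by limma (adjusted p from 0.787 to 0.987, where 0% of all probes were called), and none passed an unadjusted p of 0.05, where 3.39% of all probes were higher and 3.11% lower. At background a difference is compressed toward 0, so these values set no limit on a change of transcripts that the arrays did not detect.

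The chitosan effect in the stomach was then set against that in the brain. The difference of the 2 effects was -0.74 ± 0.81 for Cnfn, 0.79 ± 0.48 for Lor and between these for the other probes (log2, SE), with a median of 0.32. None of the 11 was called in either direction (limma over 12 arrays, smallest adjusted p = 0.591 for Tgm3), while 0.0234% of all probes were called higher and 0.227% lower. None passed an unadjusted p of 0.05 either, where 4.67% of all probes were higher and 4.69% lower. Since the members were at background in the brain, this contrast could not decide whether the chitosan effect on them differed between the organs.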

How the data were processed

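Total RNA of brain and stomach was hybridised to 12 single-colour Mouse Whole Genome OneArray arrays. The deposited values are linear Cy5 intensities that the authors read with GenePix 4.1, corrected for the surrounding background, filtered for control spots and spots with a poor signal-to-noise ratio and normalised in limma, whose method and version are not given in the sources used here. Every array has the same highest intensity of 28367.2 and a median of 47 to 47.8, so only relative levels within an array are kept, and arrays give no counts: their number, 3 in each group, limits the precision. Intensities were taken to log2 without further scaling. With limma 3.58.1 in R 4.3.3 (lmFit, and eBayes with an intensity trend) each contrast was fitted on the 6 arrays concerned and the interaction on all 12, with Benjamini-Hochberg adjustment over 29922 probes. The procedure was tested on simulated data. Probes were named from the platform annotation (21020 of 29922 have a symbol), and a gene of a list is represented by its probe with the highest mean over all arrays.

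The members and the gene lists were chosen with earlier results of these data known. Besides all member probes, up to 4 genes of each list with the highest intensity in the stomach (in the brain for neurons and glia) and the 6 genes with the most similar profile were named. Trp63, Ivl, Flg, Aloxe3, Dmkn, Krt78, Casp14 and genes of the chromosome 3 interval were named after their values were seen. Alternatives were 1 model of all 12 arrays, no intensity trend, the methods' t-test, median centring, quantile normalisation again, a floor at the 20th percentile, a filter on dim probes, the ratio of linear means, the replicate number as a block, and each array left out. Whether replicate numbers pair the samples was checked by correlating deviations from the group means over 2563 probes. Numbers 1, 2 and 3 gave 0.123, 0.449 and 0.601 between the stomach and the brain of chitosan mice, although stomach array 1 correlated more with brain array 2 (0.567). Between the chitosan and the mock stomach, which come from different mice, numbers 1, 2 and 3 gave -0.41, 0.504 and 0.578. Values of this size thus arise without pairing, and the check cannot decide whether the numbers pair the samples. The other contrasts each had a pair below 0.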

Additional observations from a re-analysis of the deposited data

How the results depend on the processing

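Of the 11 member probes none was called for chitosan over mock in the stomach, in the brain or for the difference between the organs, with any alternative in limma, nor after adjustment of the methods' t-test. At an unadjusted p the methods' t-test counted 1 in the stomach, Lor, and the share of all probes was not counted. The number of member probes at 2-fold in the stomach was 0 with all arrays and 0 to 4 with an array left out (4 higher without chitosan stomach array 3, 2 higher without mock stomach array 2, Lor higher and Cnfn lower without chitosan stomach array 2, and Cnfn lower without chitosan stomach array 1), and 0 to 3 for the difference between the organs. With an array left out Cnfn ranged from -1.23 to 0.19 in the stomach and from -1.27 to 0.15 in the difference between the organs, above 0 in each case without chitosan stomach array 3. In the stomach Sprr1a ranged from -0.28 to 1.25, Krtdap from -0.15 to 0.71 and Sprr2d from -0.08 to 0.85, each lowest without chitosan stomach array 1. In the brain, where all members were near background, the median log2 difference of -0.0061 ranged from -0.0153 to 0.0384 with an array left out and was 0.0906 over the probes above the median of all probes, and Tgm1 ranged from -0.0857 to 0.0619, the highest without mock brain array 3.

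For the stomach over the brain every member kept its direction with every alternative. In mock mice the methods' t-test with Benjamini-Hochberg adjustment called 7 of 11. The share of all probes called by this t-test was not counted in mock or chitosan mice, so its counts have no share beside them. In chitosan mice 6 were called, against 10 with all 12 arrays in 1 model, 10 with the methods' t-test at an unadjusted p, 2 with it after adjustment, and 0 to 11 with an array left out (11 without chitosan stomach array 3, 0 without chitosan stomach array 2, 1 without chitosan brain array 1, 3 without chitosan brain array 2). The cause was not tested. With the replicate number as a block the counts called were 0 for chitosan over mock in the stomach, 0 in the brain, 11 for the stomach over the brain in mock mice, 7 in chitosan mice and 0 for the difference between the organs, and Sprr2d was the call that changed. Tgm1 and Tgm3 lay close to background in the stomach, as did Cnfn on chitosan stomach array 3, which limits what a difference there can show.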

Other observations

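Genes of the same epithelium outside the member list did not all follow the array pattern of the members. Rptn and Serpinb12 were higher on every chitosan stomach array than on every mock stomach array, array 3 included. Krt10 was lower on every chitosan stomach array than on every mock stomach array. Of all probes 6.86% were higher and 5.37% lower in this way, and these genes come from longer lists. Kprp, a keratinocyte protein encoded in the chromosome 3 interval, had 298, 206 and 103 in the chitosan stomach, against 71.4, 139 and 74.2 in the mock stomach, a log2 difference of 1.03 ± 0.48 (SE, adjusted p = 0.853, limma), and Krt78, a keratin of upper squamous layers, had 344, 269 and 137 in the chitosan stomach, against 114, 151 and 84.6 in the mock stomach, a log2 difference of 1.04 ± 0.48 (SE, adjusted p = 0.853, limma). Both were named after their values were seen, and on both array 3 was the lowest chitosan array and mock array 2 the highest mock array. Without array 3 the log2 differences were 1.45 for Kprp and 1.43 for Krt78. The late envelope gene Casp14, a protease of cornifying cells, had 268, 240.2 and 52.8 in the chitosan stomach, against 151, 320 and 198 in the mock stomach, and like Cnfn it was at background on chitosan array 3 alone. Casp14 was also named after its values were seen.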
